A study of Mus musculus with 16 samples.

Results

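The genes that encode the proteasome and its helpers were examined for binding of 2 transcription factors in mouse blood progenitors. They were the 50 protein-coding genes, of 21887 on the assembled chromosomes of GRCm38.p6, whose symbols begin with Psma, Psmb, Psmc, Psmd, Psme, Psmf or Psmg followed by a digit, with Psmc3ip left out. The mm10 build of the peak lists is the same assembly. The genes lie on 16 chromosomes, and none was dropped by a filter. Bcl11a, a zinc finger repressor, and Spi1 (PU.1), an ETS factor of myeloid and lymphoid cells, were profiled by CUT&Tag, in which an antibody directs a transposase to DNA near the bound factor. The cells were MPP3, multipotent progenitors biased to the myeloid lineage, which were sorted from the bone marrow of mice. Bcl11a was profiled in WT-iMOS mice only, with 3 libraries in T1 and 3 in T2. For Spi1 there were 3 libraries in T1 and 3 in T2 from WT-iMOS mice, and 2 in T1 and 2 in T2 from KO-iMOS mice. The titles carry 3m for every library. The labels do not spell out iMOS, T1, T2 or 3m, the deleted gene, the promoter behind the deletion, or whether replicates or pools came from separate animals, so every p-value measures the spread between these libraries only. The deleted gene is not named and no Bcl11a library of KO-iMOS cells was analysed here, so the deletion could not be checked from the lists.

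The proteasome is the barrel-shaped protease that degrades proteins tagged with ubiquitin. Its core is a stack of rings: outer alpha rings gate the channel, and inner beta rings carry the protease sites. A cap of ATPase and non-ATPase subunits recognises ubiquitin, unfolds the substrate and feeds it in. In blood and immune cells interferon replaces the catalytic beta subunits with Psmb8, Psmb9 and Psmb10, giving the immunoproteasome, which cuts peptides for display on MHC class I. The Psme genes encode alternative activators that cap the same core. Proteasome genes are expressed in nearly every cell, and Nfe2l1 is known to raise them together when proteasome activity falls.

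Each library was available as a list of peaks, 2719 to 20241 peaks long. The median length was 4543 for Bcl11a, 6994 for Spi1 in WT-iMOS and 13970 for Spi1 in KO-iMOS. The lists hold no read counts, so the depth behind them is unknown, and a longer list can hold a peak at more genes. Each list pools many cells, so binding in fewer cells and weaker binding per cell cannot be told apart. A gene was scored as carrying a peak when a summit lay within 1 kb of either end of its body, called a gene-end peak below, or when any base of a peak overlapped the body with 10 kb on either side, called a locus peak. Of the 50 genes, 23 have another gene overlapping them or ending within 1 kb, and a peak there belongs to either gene. The fold enrichment, set by the peak caller against nearby signal, and the −log10 p behind each ranking are the authors' own values for each peak, used here only to describe a peak within its list. The percentile given beside a peak is its rank in its own list, the highest being the strongest. The lists differ in length, so percentiles and their medians were not compared between genotypes or targets. Peaks give no RNA level, so the progenitor identity of the cells could not be checked by expression. At the marker genes, the Flt3 locus carried Spi1 in 6 of 6 and 4 of 4 libraries, while the T cell gene Cd3e and the B cell gene Pax5 carried 0 peaks in every list.

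Spi1 stood at the ends of proteasome genes more often than at genes of the same length in every Spi1 library. In WT-iMOS it had a gene-end peak at 17, 12 and 7 of the 50 genes in the T1 replicates and at 17, 9 and 7 in the T2 replicates. Divided by the share of length-matched genes in the same list, these counts gave ratios of 2.36, 2.61 and 2.02 in T1 and 2.12, 2.07 and 2.67 in T2, a mean of 2.31 ± 0.283 (SD, n = 6). In KO-iMOS 26 and 23 genes carried Spi1 in T1 and 29 and 13 in T2. In 3 of the 4 KO-iMOS libraries the count and the list were larger than in each WT-iMOS library, while T2 replicate 2, with 6372 peaks, lay within the WT-iMOS range of both. The KO-iMOS ratios of 1.53, 1.97, 2.07 and 2.19 averaged 1.94 ± 0.291 (SD, n = 4). The ranges of the ratios in the 2 genotypes overlap. For Bcl11a the counts were 3, 8 and 16 in T1 and 2, 0 and 3 in T2, and the ratio averaged 1.25 ± 0.664 (SD, n = 6). With lists of equal length that ratio was 0.752 ± 0.642, and with peaks of a −log10 q of at least 5 it was 0.892 ± 0.822, both on the other side of 1. Of the 32 Bcl11a gene-end peaks at these genes, 24 came from T1 replicates 2 and 3. Those lists also had the largest shares of peaks near any gene end among the Bcl11a lists, 38.5% and 40.7%, against 10.6% to 21.0% in the other Bcl11a lists.

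**Figure D1:**
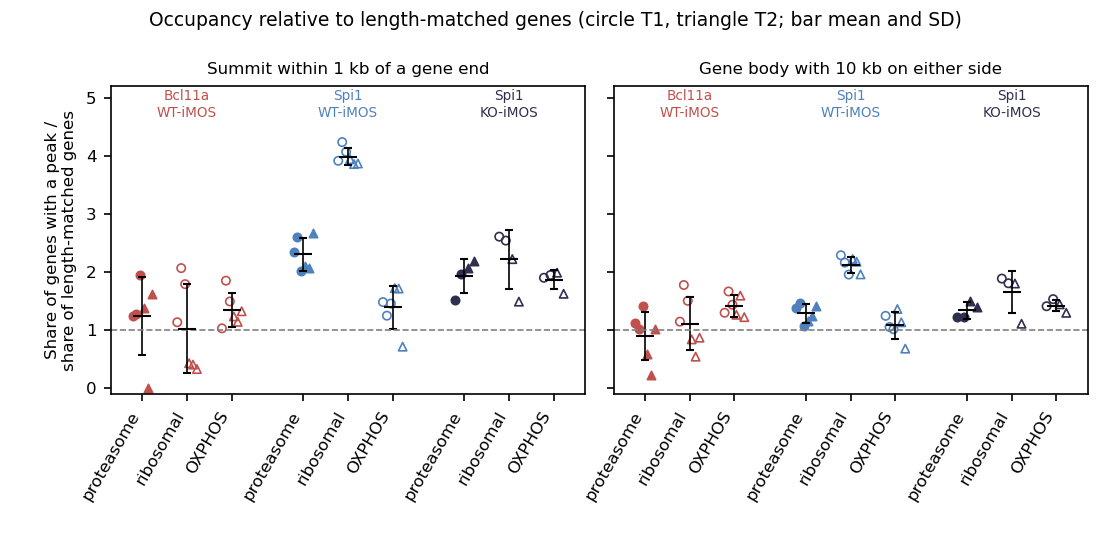
Share of genes with a peak divided by the share of length-matched genes, for each library (points), with the mean and SD of each set (bars), at gene ends (left) and at loci with 10 kb flanks (right); OXPHOS stands for oxidative phosphorylation. Filled points are the proteasome genes; their Spi1 points at gene ends run from 1.53 to 2.67, all above the dashed line at 1, and 1 Bcl11a point is at 0.

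Over loci with 10 kb flanks the ratio was closer to 1. It averaged 0.902 ± 0.42 for Bcl11a (SD, n = 6), 1.29 ± 0.159 for Spi1 in WT-iMOS (n = 6) and 1.34 ± 0.141 for Spi1 in KO-iMOS (n = 4). Genes with a gene-end peak in at least 2 libraries numbered 17 of 50 for Spi1 in WT-iMOS, 24 for Spi1 in KO-iMOS and 6 for Bcl11a. These counts are 34.0%, 48.0% and 12.0% of the set, against 12.7%, 27.3% and 10.9% of all genes. The Bcl11a share is thus near its background. By locus the counts were 20, 33 and 12, against backgrounds of 33.5%, 49.8% and 25.3%. A gene-end peak in every library of a set was found at 5 genes for Spi1 in WT-iMOS (3.11% of all genes), at 13 in KO-iMOS (9.28%) and at 0 for Bcl11a (0.781%). A further 12 genes had no gene-end peak in any of the 16 libraries, and 8 of them had no locus peak either. The share of all genes without a peak in any library was not computed, so these 2 counts have no background. With only the best peaks of each list, as many as the shortest list holds, the gene-end count in at least 2 libraries was 6 for Spi1 in WT-iMOS (4.09% of all genes) and 7 in KO-iMOS (4.46%).

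**Figure D2:**
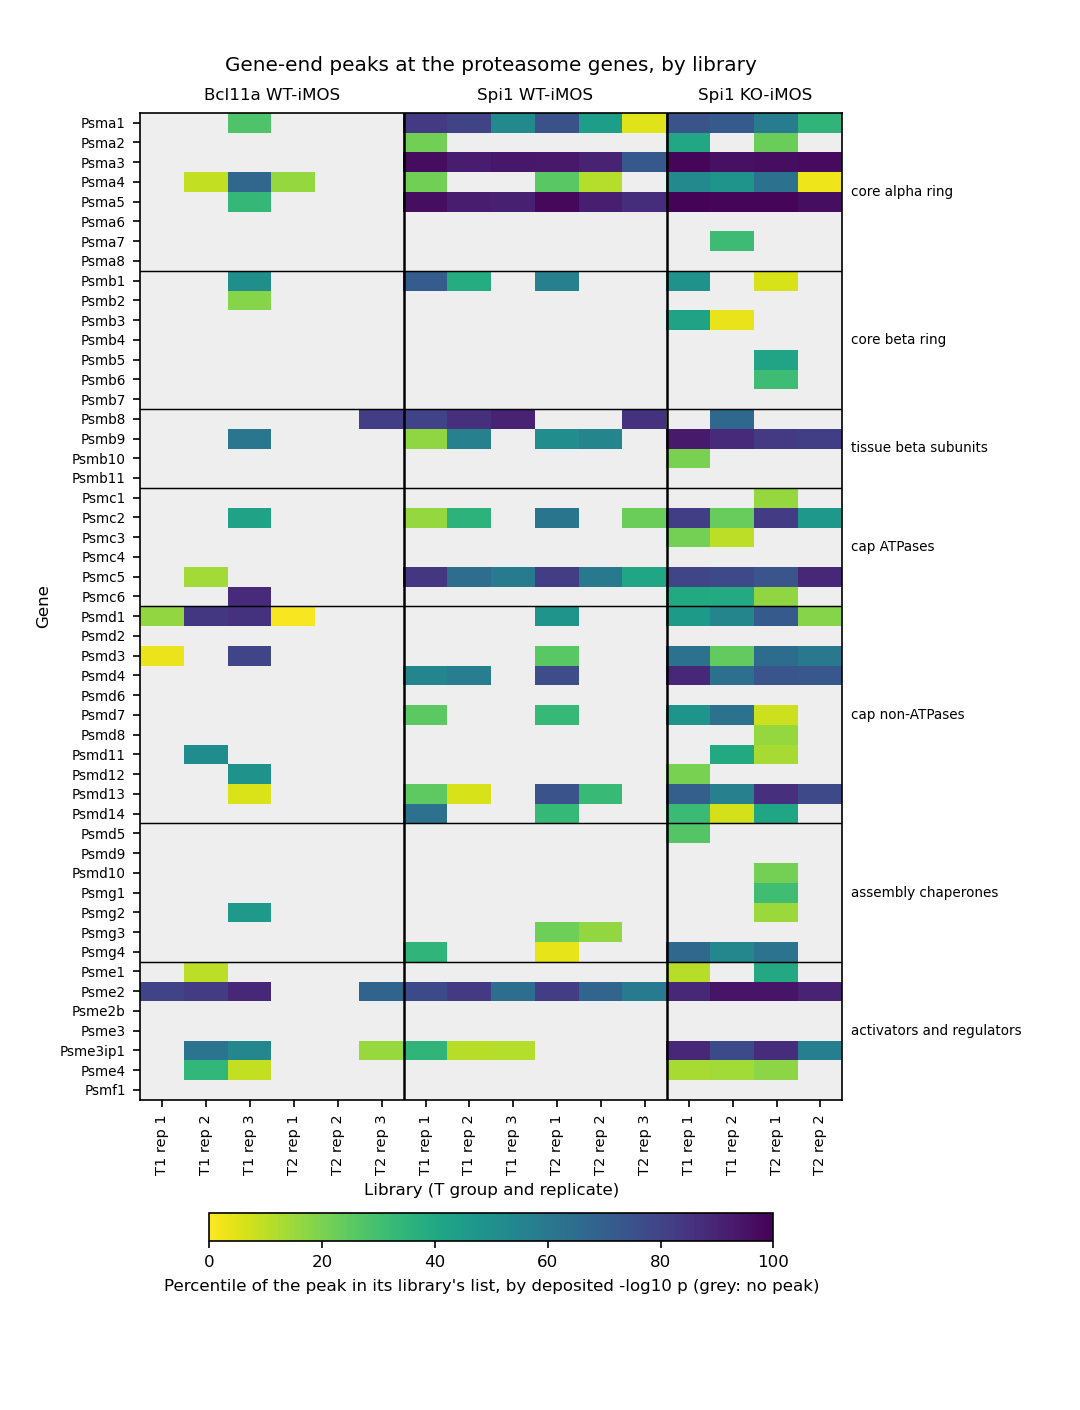
Gene-end peaks at the 50 proteasome genes (rows, grouped by role) in the 16 libraries (columns, grouped by target and genotype); colour is the percentile of the peak in its list by deposited −log10 p, and grey marks no peak. The rows of Psma3 and Psma5 are dark in all 10 Spi1 columns, and 12 rows are grey throughout.

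Among the 8 genes of the alpha ring, which forms the gate of the core, 4 carried Spi1 at a gene end in at least 2 WT-iMOS libraries and 5 in at least 2 KO-iMOS libraries. These shares of 50.0% and 62.5% stand beside 14.7% and 30.9% of length-matched genes. Psma5 lies at chr3:108256926-108279952. Its Spi1 fold enrichment was 11.9, 9.77 and 8.9 in T1 and 15.2, 11.1 and 9.49 in T2 of WT-iMOS, and 13.2, 14.0, 12.7 and 9.8 in KO-iMOS. All 10 Spi1 libraries had the peak, with percentiles from 86.8 to 99.1, and the summits lay 76 to 250 bases downstream of the start. Bcl11a had a single peak there, in T1 replicate 3, at the 33.4 percentile. Psma1 also carried Spi1 in all 10 libraries, inside the first part of the gene, with summits 239 to 627 bases downstream of its start. Its percentiles in WT-iMOS ran from 4.84 to 83.0 with a median of 63.6, and were 74.3, 71.5, 57.9 and 34.6 in KO-iMOS.

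The bases before the starts of 5 genes are shown, since their peaks lie on or beside them. They are the 250 bases upstream of the start, from RefSeq on GRCm38.p6, written 5′ to 3′ on the gene's strand. Capitals mark GGAAGT or its reverse complement, the core of sites for Spi1 and other ETS factors. Psma5 (chr3:108256676-108256925, plus strand) and Psma1 (chr7:114276117-114276366, minus strand) were bound by Spi1 in all 10 libraries and hold no such core in these bases. The Spi1 summits of both, and of Psme4, lay downstream of the start, outside the bases shown. The sequence under those summits was not searched. Psme2 (chr14:55591102-55591351, minus strand), bound by Spi1 in all 10 and by Bcl11a in 4 of 6, holds 1. Psmd1 (chr1:86064369-86064618, plus strand), where Bcl11a was found in 4 of 6, holds none. Psme4 (chr11:30771525-30771774, plus strand), bound by Spi1 in KO-iMOS libraries and in no WT-iMOS library, holds 1.
Psma5: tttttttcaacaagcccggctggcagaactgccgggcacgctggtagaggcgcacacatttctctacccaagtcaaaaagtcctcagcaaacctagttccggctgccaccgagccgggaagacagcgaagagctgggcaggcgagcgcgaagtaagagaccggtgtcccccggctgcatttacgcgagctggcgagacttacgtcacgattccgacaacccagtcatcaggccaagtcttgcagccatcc
Psma1: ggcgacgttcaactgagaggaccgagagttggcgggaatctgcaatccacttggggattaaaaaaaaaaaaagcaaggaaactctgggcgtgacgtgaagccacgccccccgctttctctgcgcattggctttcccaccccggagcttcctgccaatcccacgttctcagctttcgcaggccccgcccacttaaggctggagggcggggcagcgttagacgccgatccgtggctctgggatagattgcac
Psme2: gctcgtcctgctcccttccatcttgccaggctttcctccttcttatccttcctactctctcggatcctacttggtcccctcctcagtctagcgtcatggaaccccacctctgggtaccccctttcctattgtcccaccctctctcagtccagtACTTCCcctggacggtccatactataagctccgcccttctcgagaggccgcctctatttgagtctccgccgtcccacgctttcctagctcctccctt
Psmd1: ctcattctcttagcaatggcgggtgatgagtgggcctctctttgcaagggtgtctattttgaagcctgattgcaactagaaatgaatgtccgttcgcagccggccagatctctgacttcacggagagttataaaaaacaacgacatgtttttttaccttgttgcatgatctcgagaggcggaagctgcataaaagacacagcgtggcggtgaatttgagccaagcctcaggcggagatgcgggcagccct
Psme4: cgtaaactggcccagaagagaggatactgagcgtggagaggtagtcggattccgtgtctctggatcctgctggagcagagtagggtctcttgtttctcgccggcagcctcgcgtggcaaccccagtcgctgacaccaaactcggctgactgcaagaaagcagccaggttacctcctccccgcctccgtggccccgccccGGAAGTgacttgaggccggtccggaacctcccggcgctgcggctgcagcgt

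The other alpha ring genes differed in where Spi1 stood. Psma3 carried 3 separate Spi1 regions. One, at chr12:70968135-70969169, lies just upstream of the annotated body and was present in all 10 libraries, with a median percentile of 92.5 in WT-iMOS and 96.7 in KO-iMOS. Another, at chr12:70999333-71000085, beyond the far end of the gene, was also present in all 10, with medians of 89.8 and 92.9. The third, at chr12:70974304-70975049, covers the start listed in the promoter table and was weaker, in 4 of 6 WT-iMOS and 3 of 4 KO-iMOS libraries with medians of 26.5 and 61.8. Bcl11a had 0 peaks at Psma3. Psma6 had no gene-end peak in any library, yet a region inside the gene at chr12:55389359-55390348 carried Spi1 in 6 of 6 and 4 of 4 libraries and Bcl11a in 2 of 6. A further internal region, chr12:55398172-55399132, which covers an alternative start, carried Spi1 in 5 of 6 and 4 of 4. Psma4 (chr9:54950781-54958034, overlapped by AY074887) was the alpha ring gene with most Bcl11a, in 3 of 6 libraries, beside Spi1 in 3 of 6 and 4 of 4. Psma2 carried Spi1 in 1 of 6 and 2 of 4 libraries and Psma7 in 0 of 6 and 1 of 4. Psma8, an alpha subunit of germ cells, had no peak at its locus in any library.

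The beta ring holds the protease sites. Of its 7 genes, 1 had Spi1 in at least 2 WT-iMOS libraries, 2 in at least 2 KO-iMOS libraries and 0 had Bcl11a in at least 2. The Spi1 shares of 14.3% and 28.6% were near those of length-matched genes, 13.3% and 27.5%. For Bcl11a the length-matched share was 11.1%. The one in WT-iMOS was Psmb1, with Spi1 in 3 of 6 and 2 of 4 libraries and Bcl11a in 1 of 6. Psmb3 carried Spi1 in 0 of 6 and 2 of 4, both in T1. The genes of the constitutive catalytic subunits, Psmb5, Psmb6 and Psmb7, carried Spi1 in 0 of 6 WT-iMOS libraries at a gene end and in 1, 1 and 0 of 4 KO-iMOS libraries. Psmb7 did carry Spi1 at an internal region, chr2:38616152-38616749, in 3 of 4 KO-iMOS libraries and in 0 of 6 of WT-iMOS, at the 8.1 to 12.3 percentile. Psmb2 had a peak in 1 library, a Bcl11a one, and Psmb4 had none at its locus.

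Psmb8 and Psmb9, which encode beta subunits of the immunoproteasome, sit among antigen processing genes on chromosome 17. Psmb9 shares its start region with Tap1, a subunit of the transporter that brings peptides to MHC class I. The region between them, chr17:34186809-34187939, carried Spi1 in WT-iMOS T1 replicates 1 and 2 and T2 replicates 1 and 2, with percentiles of 16.5, 56.4, 50.9 and 54.3. It carried Spi1 in all 4 KO-iMOS libraries, with percentiles of 92.6, 87.6, 83.0 and 81.6. Those lists differ in length and a percentile is a place within 1 list, so the 2 ranges were not compared. Bcl11a was listed there in T1 replicate 3 alone.

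Psmb8, a catalytic subunit gene, was the 1 member of 50 with a locus peak in all 6 Bcl11a libraries. Among all 21887 genes, 775 had such a peak in all 6. The region, chr17:34201936-34203282, lies beyond the 3′ end of the gene, and carried Bcl11a in 6 of 6, Spi1 in 6 of 6 WT-iMOS and Spi1 in 3 of 4 KO-iMOS libraries. The neighbouring gene Tap2 had the same locus counts of 6, 6 and 3, so the region cannot be given to Psmb8 alone. The median percentile of the region was 89.8 for Bcl11a, 82.6 for Spi1 in WT-iMOS and 56.1 for Spi1 in KO-iMOS. The summits lay 771 to 1598 bases past the gene end, so they fall on both sides of the limit of 1 kb. At a gene end Psmb8 therefore counted 1 Bcl11a, 4 WT-iMOS Spi1 and 1 KO-iMOS Spi1 library, although the peaks overlap one another. Psmb10, the immunoproteasome subunit gene on chromosome 8, carried 1 peak, for Spi1 in KO-iMOS T1 replicate 1. Psmb11, whose product belongs to the thymus form of the core, had no gene-end peak.

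**Figure D3:**
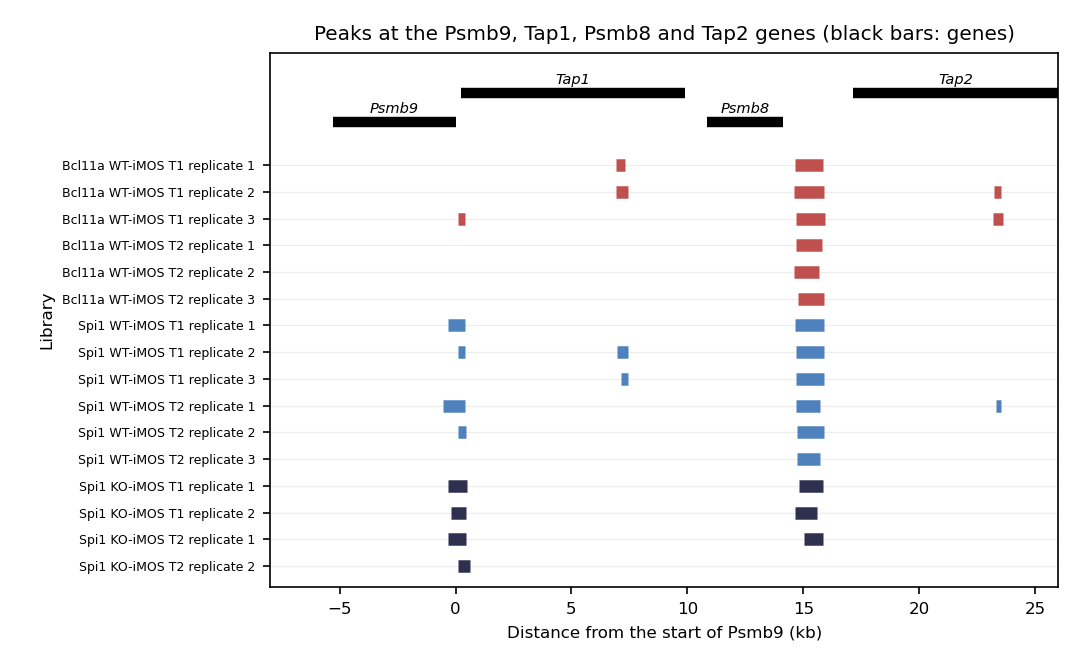
Peaks of each library (rows) along the Psmb9, Tap1, Psmb8 and Tap2 genes (black bars), by distance from the start of Psmb9 in kb. The peak past Psmb8 is present in 15 of the 16 libraries, and the peak at the shared Psmb9 and Tap1 start in all 4 KO-iMOS Spi1 libraries, 4 of 6 WT-iMOS Spi1 libraries and 1 of 6 Bcl11a libraries.

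Of the 6 ATPase genes of the cap, which encode the ring that unfolds substrates, 2 carried Spi1 in at least 2 WT-iMOS libraries and 4 in at least 2 KO-iMOS libraries. The shares were 33.3% and 66.7%, against 14.3% and 29.3% of length-matched genes. Psmc5 carried it in all 10. The region, chr11:106255499-106256514, is shared with the start of Ftsj3, and its fold enrichment was 8.96, 6.44 and 5.95 in T1 and 9.51, 7.03 and 5.68 in T2 of WT-iMOS, and 7.6, 8.23, 7.27 and 10.1 in KO-iMOS. Replicate 1 of each T gave the highest values in WT-iMOS, and the genotypes' ranges overlap. Psmc2, which shares its start with Dnajc2, carried Spi1 in 4 of 6 and 4 of 4 libraries. Psmc3 and Psmc6 carried Spi1 in 0 of 6 WT-iMOS libraries and in 2 and 3 of 4 KO-iMOS libraries. Psmc1 had 1 KO-iMOS peak, and Psmc4 had none at its locus in any library.

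The 11 non-ATPase genes of the cap encode the scaffold, the ubiquitin receptors and the lid that removes ubiquitin. Of these, 4 carried Spi1 in at least 2 WT-iMOS libraries, 7 in at least 2 KO-iMOS libraries and 2 carried Bcl11a in at least 2. The shares were 36.4%, 63.6% and 18.2%, against 14.7%, 31.5% and 12.4% of length-matched genes. Psmd1, the large scaffold subunit, at chr1:86064619-86139295, was the member with Bcl11a most often beside Psme2. Bcl11a peaks were present in T1 replicates 1, 2 and 3 and T2 replicate 1, at percentiles of 16.1, 83.9, 85.5 and 0.852. Their fold enrichment was 4.1, 6.95, 6.97 and 3.85. Spi1 peaks were present in T2 replicate 1 of WT-iMOS, at 6.16, and in the 4 KO-iMOS libraries, at 6.07, 7.0, 7.63 and 5.21. In the region, chr1:86064350-86064914, the summits of all 9 peaks of both factors lay 1 or 3 bases before the annotated start.

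Psmd3, a lid subunit, had a like distribution, with Bcl11a in 2 of 6, Spi1 in 1 of 6 WT-iMOS and 4 of 4 KO-iMOS libraries. Psmd4, a ubiquitin receptor, carried Spi1 in 3 of 6 and 4 of 4 libraries and no gene-end Bcl11a peak. Psmd13, a lid subunit sharing its start with Sirt3, carried Spi1 in 4 of 6 and 4 of 4 and Bcl11a in 1 of 6. Psmd14, the deubiquitinase of the lid, and Psmd7, its partner, each carried Spi1 in 2 of 6 and 3 of 4. Psmd11 carried Spi1 in 0 of 6 and 2 of 4, Psmd12 and Psmd8 in 0 of 6 and 1 of 4. Psmd2, the other large scaffold subunit, and Psmd6 had no locus peak in any library.

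Of the 7 assembly chaperone genes, whose products build the core and the cap and then leave, 2 carried Spi1 at a gene end in at least 2 WT-iMOS libraries and 1 in at least 2 KO-iMOS libraries. Those shares were 28.6% and 14.3%, against 14.4% and 30.2% of length-matched genes. Psmg4 carried Spi1 in 2 of 6 and 3 of 4 libraries. Psmg3 carried Spi1 at its start in T2 replicates 1 and 2 of WT-iMOS and in no KO-iMOS library, while a separate upstream region, chr5:139830609-139831257, carried Spi1 in 3 of 6 and 4 of 4. Psmd5, Psmd10, Psmg1 and Psmg2 each had a gene-end Spi1 peak in 1 KO-iMOS library and in no WT-iMOS library, and Psmd9 had none. Bcl11a was listed once at a gene end, at Psmg2 in T1.

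Among the 7 activator and regulator genes, Psme2 had the most gene-end peaks of all 50 members, in 14 of the 16 libraries. It encodes a subunit of the interferon-induced activator, and its start region, chr14:55590893-55592138, is shared with Rnf31. Bcl11a was present in T1 replicates 1, 2 and 3 and T2 replicate 3, at percentiles of 80.0, 82.8, 88.9 and 67.8. Spi1 was present in all 6 WT-iMOS libraries, at percentiles from 59.0 to 83.2 with a median of 72.5, and in all 4 KO-iMOS libraries at 89.0, 94.3, 94.2 and 90.1. The 2 Bcl11a libraries without the peak were T2 replicates 1 and 2. Psme1, the partner subunit in the same cluster, carried gene-end Spi1 in 0 of 6 and 2 of 4 libraries and Bcl11a in 1 of 6. Its locus counts of 4, 6 and 4 libraries include the Psme2 region, which lies within 10 kb.

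Psme4, another activator gene, carried Bcl11a in 2 of 6 libraries and Spi1 in 0 of 6 and 3 of 4, at percentiles of 12.9 to 17.4. Psme3ip1, which encodes a partner of the Psme3 activator, carried Bcl11a in 3 of 6, in T1 replicates 2 and 3 and T2 replicate 3. Spi1 was found there in all 3 WT-iMOS T1 libraries, in 0 of 3 T2 libraries and in 4 of 4 KO-iMOS libraries. The percentiles were 34.4, 10.9 and 11.0 in WT-iMOS and 88.7, 77.7, 87.0 and 57.0 in KO-iMOS, each a rank within a list of its own length, so they were not compared. Psme2b, Psme3 and Psmf1 had no locus peak in any library.

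At the members listed in the promoter table the summits of gene-end peaks gathered at the start of the gene rather than its far end. Within 1 kb of an annotated start were 26 of 27 Bcl11a, 53 of 63 WT-iMOS Spi1 and 74 of 79 KO-iMOS Spi1 peaks. The median summit lay 11.5 bases downstream of the start for Bcl11a and 85 and 31 bases upstream for Spi1, at −85.0 and −31.0. Of the peaks near a start, 20, 30 and 52 lay within 250 bases of it. The 10 WT-iMOS Spi1 peaks away from a start in the promoter table are 6 at Psma3 and the 4 past Psmb8. Those at Psma3 lie just upstream of the 5′ end of the annotated body, so they are not at the far end of that gene. Across all genes, 74.4% to 82.1% of gene-end peaks lay within 1 kb of a start, depending on the list. That share accepts a start of any gene and includes peaks at genes with no start in the promoter table. It is thus not the same measure as the member shares.

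**Figure D4:**
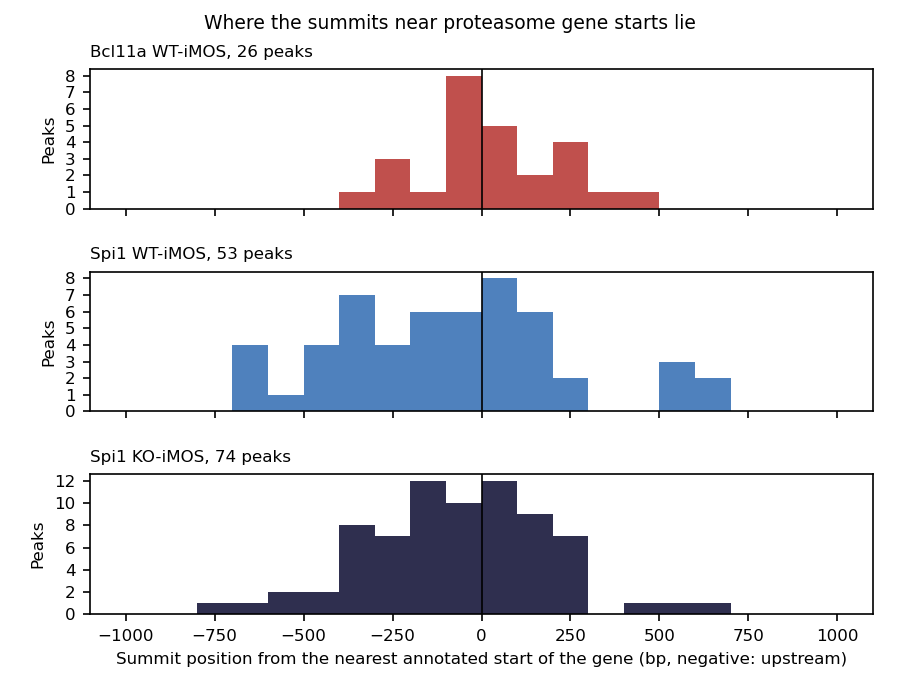
Position of gene-end summits relative to the nearest annotated start, in bases, for 26 Bcl11a, 53 WT-iMOS Spi1 and 74 KO-iMOS Spi1 peaks at proteasome genes. Most summits lie close to 0, on both sides.

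The upstream sequences were searched for short motifs on both strands, in 46 promoters of 42 members and in 21263 promoters of all protein-coding genes. The ETS core GGAAGT was in 17 of 46 member promoters, 37.0%, against 20.4% of all. Of its longer forms, CCGGAAGT, known from housekeeping promoters, was in 13.0% against 3.79%, and GAGGAAGT, a longer Spi1 form, in 6.52% against 2.23%. Both contain GGAAGT, so the counts overlap. The core was in 8 of 18 promoters of members with Spi1 at a gene end in at least 2 WT-iMOS libraries and in 8 of 26 promoters of members with none. TGACCA, the Bcl11a motif, was in 10.9% against 10.5%, and in 0 of 7 promoters of members with Bcl11a in at least 2 libraries. Forms of the antioxidant response element, which Nfe2l1 and Nfe2l2 bind, were TGACNNNGC, in 10.9% against 10.4% and a longer form, in 0.0% against 0.254%. The GC box GGGCGG was in 52.2% against 42.6%, CCAAT in 32.6% against 35.4%, and the NRF-1 site in 13.0% against 5.18%. Median GC content was 57.4% in member promoters and 55.6% in all, with a median of 14 and 10 CpG sites, and the part of base composition in the motif shares was not tested. A match describes letters within this window and is not evidence of binding. Some summits lie outside the window, so a promoter without the core may still hold one under its peak.

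Spi1 in KO-iMOS against WT-iMOS is the genotype comparison that the lists allow. The share of libraries with a gene-end Spi1 peak was higher in KO-iMOS by at least 0.5 at 11 members and lower by that much at 0, against 16.1% and 0.219% of all genes. Those 11 are 22.0% of the set. They were Psma4 of the alpha ring, Psmb3 of the beta ring, Psmc3 and Psmc6 of the ATPases, Psmd1, Psmd3, Psmd4 and Psmd11 of the cap, and Psme1, Psme4 and Psme3ip1 of the activators. At 17 members Spi1 was listed in KO-iMOS and in no WT-iMOS library, 34.0% against 19.5% of all genes, and at 1 member, Psmg3, the reverse, against 1.11%. Over loci 15 members were higher by at least 0.5 and 0 lower, against 22.5% and 2.12%.

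No gene passed Fisher's exact test after Benjamini-Hochberg adjustment over 21887 genes, at gene ends or over loci (0.0% called in both). At gene ends 4 members had an unadjusted exact p under 0.05, all higher in KO-iMOS, among 1342 genes higher and 23 lower. Psmc6 and Psme4, with 3 of 4 against 0 of 6 libraries, had an exact p of 0.0333 (adjusted p = 0.66). Psmd1 and Psmd3, with 4 of 4 against 1 of 6, had an exact p of 0.0476 (adjusted p = 0.764). The smallest p this design allows is 0.00476, and the smallest adjusted p of any gene was 0.457 at gene ends and 0.264 over loci. Over 21887 genes an adjusted p under 0.05 would need a large number of genes at that smallest p. A count of 0 calls therefore does not show that no gene differed. Over loci 6 members had an unadjusted exact p under 0.05, again all higher, among 1829 genes higher and 194 lower. Within T1 the gene-end share was higher by at least 0.5 at 16 members and lower at 1, Psmb8, against 24.9% and 0.361% of all genes. Within T2 it was higher at 16 members and lower at 1, Psmg3, against 16.3% and 1.1%.

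The median KO-iMOS list was longer, and the genotype counts changed with list length. With equal-length lists 4 members were higher by at least 0.5 and 1 was lower, against 1.77% and 0.635% of all genes. The 4 were Psmb9, Psmd4, Psmd13 and Psme3ip1, of which Psmd4 and Psme3ip1 were also among the 11. The 1 lower was Psmb8, whose summits lie on both sides of the 1 kb limit. Psma3, Psma5 and Psme2 stood at 2 or more libraries of either genotype in lists of equal length. Leaving out each library in turn gave between 8 and 15 members higher by at least 0.5.

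**Figure D5:**
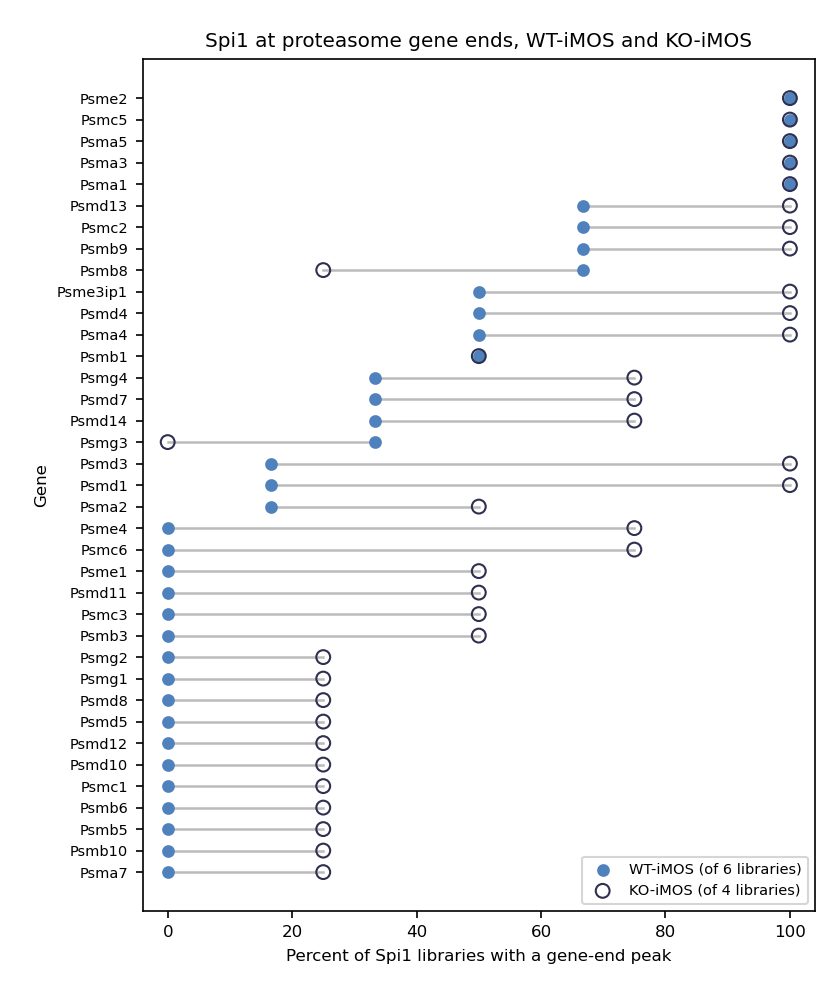
Percent of Spi1 libraries with a gene-end peak in WT-iMOS (filled, of 6) and KO-iMOS (open, of 4) for each proteasome gene with such a peak in any Spi1 library. At 17 genes the WT-iMOS point is at 0, and at 5 both points are at the right edge, every library.

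Next, the factors were compared in WT-iMOS. Bcl11a had a gene-end peak in at least 2 libraries at 6 members and Spi1 at 17, and 3 were in both lists: Psma4, Psme2 and Psme3ip1. That is 50.0% of the Bcl11a members and 17.6% of the Spi1 members, against 60.1% and 51.4% over all genes. Psmd1, Psmd3 and Psme4 were the Bcl11a members outside the Spi1 list. The Bcl11a share of libraries exceeded the Spi1 share by at least 0.5 at 1 member, Psmd1, and fell short by as much at 9, against 1.55% and 5.16% of all genes. Psmd1, at 4 of 6 against 1 of 6 libraries, stands just at the limit of 0.5. Its Bcl11a peak in T2 replicate 1, which the call needs, was among the weakest of its list, at the 0.852 percentile. The 9 were Psma1, Psma3, Psma5, Psmb8, Psmb9, Psmc2, Psmc5, Psmd4 and Psmd13. At Psmb8 the difference comes from summits on either side of the 1 kb limit, since the region past the gene carried both factors in 6 of 6 WT-iMOS libraries. No gene passed Fisher's exact test after adjustment at gene ends or over loci (0.0% called in both). Psma3, at 0 of 6 against 6 of 6, had an exact p of 0.00216 (adjusted p = 0.274), the smallest the design allows. A call would need a large number of genes at that p, so 0 calls does not show that no gene differed. Psma1, Psma5 and Psmc5, at 1 of 6 against 6 of 6, had an exact p of 0.0152 (adjusted p = 0.793). At an unadjusted exact p under 0.05 stood 49 genes higher and 369 lower for Bcl11a at gene ends, and 59 higher and 798 lower over loci. The members among them were lower for Bcl11a, 4 at gene ends and 3 over loci. This comparison and that of the genotypes share the WT-iMOS Spi1 libraries.

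Merged over all lists, the peaks at member loci formed 67 regions, of which 46 were in at least 2 libraries. Both factors were listed in 27 regions, Bcl11a without Spi1 in 2, and Spi1 of KO-iMOS alone in 23. These are 40.3%, 2.99% and 34.3% of the regions, against 29.5%, 7.33% and 35.1% of 24351 regions merged in the same way at the loci of all protein-coding genes. Spi1 was present in all 10 of its libraries in 8 regions. For the counts of 46 and 8 regions, the share among the regions of all genes was not computed.

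T1 and T2 were compared within each target and genotype. These designs cannot pass a threshold, since the smallest possible exact p is 0.1 for 3 against 3 and 0.333 for 2 against 2. No gene was called at gene ends or over loci in any of the 3 sets (0.0%). For Bcl11a 0 members were higher in T2 by at least 0.5 and 4 were lower (0.114% and 6.7% of all genes): Psmd1 and Psme2, from 3 libraries to 1, and Psmd3 and Psme4, from 2 to 0. For Spi1 in WT-iMOS 1 was higher, Psmg3, from 0 to 2 libraries (0.873%), and 2 were lower, Psme3ip1, from 3 to 0, and Psmb8, from 3 to 1 (1.17%). The Psmb8 region itself carried Spi1 in all 3 T1 and all 3 T2 libraries, and in T2 replicates 1 and 2 the summits lay 1340 and 1090 bases past the gene end, outside the limit. For Spi1 in KO-iMOS, where 1 library is a share of 0.5, 7 were higher and 12 lower (3.83% and 18.5%). T2 replicate 2 of KO-iMOS, with 6372 peaks, had 13 members, the fewest of the 4.

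Other genes of the pathway were described in the same way. Of 33, 9 carried Spi1 at a gene end in at least 2 WT-iMOS libraries, 18 in at least 2 KO-iMOS libraries and 9 carried Bcl11a in at least 2. Those shares of 27.3%, 54.5% and 27.3% stand beside 12.7%, 27.3% and 10.9% of all genes. Bcl11a was in all 6 libraries at Nfe2l1, the factor that raises proteasome genes, at Nfe2l2, its relative in the oxidative stress response, and at Zfand5, a proteasome partner. Spi1 at these genes was in 1, 5 and 3 of 6 WT-iMOS and in 3, 4 and 3 of 4 KO-iMOS libraries. Bcl11a thus stood at the gene of this regulator in more libraries than at any of the 50 members at a gene end, where the highest count was 4 of 6. Tapbp, the MHC class I loading factor, carried Spi1 in 6 of 6 and 3 of 4 libraries and Bcl11a in 0 of 6. Usp14, a deubiquitinase on the cap, carried Spi1 in 2 of 6 and 4 of 4, and Pomp, a core assembly factor, in 2 of 6 and 3 of 4.

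Beside other housekeeping sets, the proteasome genes took a middle place for Spi1 in WT-iMOS. Their gene-end ratio of 2.31 ± 0.283 (SD, n = 6) lay below that of 86 cytosolic ribosomal protein genes, 3.99 ± 0.146, and above that of 87 oxidative phosphorylation genes, 1.39 ± 0.376, and the 3 ranges over libraries do not overlap. In KO-iMOS the ratios were 1.94 ± 0.291, 2.22 ± 0.512 and 1.87 ± 0.164 (SD, n = 4), and the ranges overlap. For Bcl11a they were 1.25 ± 0.664, 1.03 ± 0.763 and 1.35 ± 0.294 (SD, n = 6). These sets were not tested against each other.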

How the data were processed

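CUT&Tag libraries for Bcl11a and Spi1 from sorted MPP3 cells were grouped by the target, genotype and T in their labels, giving 16 libraries in 6 groups. The authors deposited 1 narrowPeak list per library, so peaks were called per library; Bowtie2, SAMtools, MACS2 and mm10 are named in the submitters' processing notes, while their versions and settings, and any control sample, are not given in the sources used here. Per peak the authors deposited a whole-number score, the fold enrichment, which is a ratio to nearby signal, and p-value and q-value as −log10. Peak names in some lists carry prefixes that the labels do not explain. Depth is unknown, so no counting interval is given.

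Genes and promoter sequences came from RefSeq tables on GRCm38.p6. A gene-end peak has its summit within 1 kb of a gene end, and a locus peak shares at least 1 bp with the body and 10 kb on either side. The share of members with a peak was divided by that of all protein-coding genes in the same of 10 length bins, weighted to the members. Each gene was tested by Fisher's exact test, two-sided, on libraries with and without a peak. Benjamini-Hochberg adjustment ran over all 21887 genes, with a threshold of 0.05. In simulated data the genes set to differ had a peak in every library of 1 group and in none of the other. Their unadjusted p under 0.05 was therefore fixed in advance, and no conclusion is drawn from it. Ribosomal genes were chosen by symbol, leaving out paralogues such as Rpl7l1; Paaf1 of the pathway list was not found under that symbol. Named are members with Bcl11a in at least 3 of 6 or Spi1 in at least 4 of 6 WT-iMOS libraries, those differing by at least 0.5 between genotypes, those with no locus peak, and Psmb8, Psmb9, Psmb10, Psme1 and Psme2; others appear by their counts. The genes shown by sequence, and those named with lists of equal length, were chosen after their values were seen. The members and gene lists were chosen with earlier results of these data known. Alternatives were other windows, stronger peaks, lists of equal length, unmatched genes, nearest-gene assignment, other exact tests and leaving out libraries. The tools were scipy 1.17.1, pandas 2.3.3 and numpy 2.4.6 under Python 3.11.15, with figures by matplotlib 3.10.9.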

Additional observations from a re-analysis of the deposited data

Results flagged for a closer look

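The Bcl11a library T2 replicate 2 of WT-iMOS had a gene-end peak at 0 of the 50 proteasome genes, a ratio to length-matched genes of 0.0, while the other 5 Bcl11a libraries lay between 1.24 and 1.95. It stood apart from them by Dixon's criterion, with a gap of 0.64 of the group's range, just above the critical value for 6 libraries. Its list was the shortest of all, at 2719 peaks, and 3.25% of length-matched genes carried a gene-end peak in it; the part of list length was not tested. Of 12 sets of values checked in this way it was the 1 that stood apart, and chance alone marks about 1 set in 20.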

How the results depend on the processing

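None of the 11 members higher by at least 0.5 in KO-iMOS at gene ends reversed its sign under the alternatives run. Of the differences recomputed for them, 134 stayed at 0.5 or more and 31 fell below. The other share differences named were not checked for sign. The Bcl11a locus ratio lay on both sides of 1 when libraries were left out in turn. With lists of equal length the gene-end ratio was 2.59 for Spi1 in WT-iMOS and 2.76 in KO-iMOS, an order opposite to that of the full lists, and the locus ratio 1.55 and 1.72. The Bcl11a gene-end ratio, 1.25 in the full lists, was 0.752 in lists of equal length and 0.892 at a −log10 q of at least 5, below 1 in both. Members with a gene-end peak in at least 2 libraries then numbered 2 for Bcl11a, 6 for Spi1 in WT-iMOS and 7 in KO-iMOS, and with a locus peak 4, 9 and 10. The members higher in KO-iMOS by at least 0.5 numbered 4 at gene ends and 5 over loci. At a −log10 q of at least 5 the Bcl11a counts were 3 at gene ends and 6 over loci. Without a flank the Bcl11a locus count was 6 and the members higher in KO-iMOS were 9. The gene-end ratio for WT-iMOS Spi1 was 1.92 within 500 bp and 1.75 within 3 kb, and for KO-iMOS 1.61 within 3 kb. Without T1 replicates 2 and 3 of Bcl11a the Bcl11a counts were 2 and 4; that alternative, and all those for counts of members, were added once the data had been seen. Leaving out 1 library at a time gave gene-end ratios of 1.11 to 1.5 for Bcl11a, 2.23 to 2.36 for WT-iMOS Spi1 and 1.85 to 2.08 for KO-iMOS, with 4 to 6, 13 to 17 and 19 to 24 members in at least 2 libraries. The locus ratios were 0.798 to 1.03, 1.26 to 1.34 and 1.28 to 1.38, with 8 to 12, 17 to 20 and 25 to 33 members, and 8 to 15 and 11 to 21 members were higher in KO-iMOS at gene ends and over loci. The cause of these moves was not tested, except that shorter lists and fewer libraries hold fewer peaks. Each per-gene comparison called 0 genes under every alternative run, with the limit already given on what 0 calls can show. A replicate block within T also called 0 in each, with a smallest adjusted p of 1.0. Labels there swap only between same-numbered libraries, so the smallest possible p is too large for a call over all genes in practice. No conclusion is drawn from it. Same-numbered libraries deviated together with correlations of −0.11 to 0.258, not above 0.1 in every pair, so the numbers were not taken to pair the libraries.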
